A study of Homo sapiens with 6 samples.

Results

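The 10 genes described here were HSF1, HSF2, HSPH1, HSP90AA1, HSP90AB1, HSPD1, HSPE1, BAG3, HSPB1 and HSPB8, taken by symbol from a table of 35993 genes. They are heat shock transcription factors, the cytosolic HSP90 pair, the HSP110 chaperone HSPH1, the mitochondrial chaperonin pair, the co-chaperone BAG3 and the small heat shock proteins HSPB1 and HSPB8, which bind it. RNA-seq was done on MIA PaCa-2, an established line of human pancreatic cancer, in 3 untreated libraries and 3 treated with rhCYGB at 4 µM during 48 h. rhCYGB is recombinant human cytoglobin, a heme protein that binds oxygen, carrying a histidine tag and made in E. coli. All cells were grown in DMEM with 10% FBS and 2.5% horse serum, plated for 24 h and moved to medium with 1% FBS before treatment, and the vehicle given to untreated cells was not stated in the sources used here. The comparison asks how the transcripts of these genes differ between rhCYGB-treated and untreated cells of this single line. The sources do not say whether the 3 libraries of a group came from separate cultures, so the p-values measure only the spread between these libraries, which may be technical.

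HSF1 is the transcription factor that drives the heat shock response. It is held inactive by chaperones, is released when unfolded proteins occupy them, forms a trimer and binds heat shock elements, which are inverted repeats of the short unit GAA. HSP90 folds and stabilises signalling proteins with the help of co-chaperones, HSP110 proteins exchange nucleotide on HSP70, HSPD1 and HSPE1 form the folding chamber of the mitochondrial matrix and its lid, and BAG3 joins HSP70 to small heat shock proteins.

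The total count on genes ranged from 34838399 to 42271299 per library, and the CPM values used below give each gene's counts relative to the library total multiplied by a TMM scaling factor. These factors were 1.06 in each untreated library and between 0.932 and 0.955 in the rhCYGB libraries. Without the factors, the median log2 fold change of all tested genes moved by -0.16, with upper-quartile factors by -0.14 and with limma on log2(FPKM + 0.1) by -0.15, so small changes depend on the scaling. The line's markers KRT8, KRT18 and VIM were measured at means of 2085, 1648 and 8013 CPM in untreated cells and 1190, 1694 and 11744 CPM after rhCYGB, while EPCAM and CDKN2A had 0 counts throughout and CDH1 had 2 counts in 1 untreated library and 0 elsewhere. Of 8 markers of blood, stromal and endothelial cells, PTPRC and PECAM1 had 0 counts in every library. The summed level of the 8 lay between 298 and 303 CPM in untreated and between 93.3 and 97.9 CPM in rhCYGB libraries, and was carried mainly by COL1A2 (142 and 6.86 CPM), CDH5 (117 and 12.2 CPM) and CD68 (36 and 71.4 CPM). The part of these in the results was not tested.

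Promoter windows from RefSeq (GRCh38.p14), running from 250 bases before to 50 bases after a gene's start, were found for 9 members, all but HSF1, with 14 windows between them. A heat shock element of 3 units, written GAANNTTCNNGAA or TTCNNGAANNTTC and searched on both strands, was in 3 of the 14 windows (21.4%) and in 0.490% of all 35116 windows of that length. These windows belonged to HSPD1, HSP90AB1 and HSP90AA1. The shorter pair of units, GAANNTTC or TTCNNGAA, lies within every element of 3 units and was in 5 member windows (35.7%), against 13.5% of all windows, and the 2 further genes were HSPB1 and HSPB8. The windows of HSPE1, BAG3, HSF2 and HSPH1 held neither form. The stretches with the longer element are shown, with the HSPB1 stretch as an example of the shorter form in a measured gene, and capitals mark every pair of units. HSPB8, which had no counts, is not shown.
HSP90AA1, chr14:102087103-102087132, minus strand: TTCCGGAAGGTTCgggaggcTTCTGGAAaa
HSP90AB1, chr6:44247763-44247857, plus strand: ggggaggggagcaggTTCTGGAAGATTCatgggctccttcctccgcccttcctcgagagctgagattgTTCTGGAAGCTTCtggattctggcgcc
HSPD1, chr2:197500061-197500090, minus strand: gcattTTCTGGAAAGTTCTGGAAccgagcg
HSPB1, chr7:76302468-76302527, plus strand: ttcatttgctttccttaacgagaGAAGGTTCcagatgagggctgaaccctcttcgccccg

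The HSP90AA1 element began 88 bases before a start that lies 52705 bases from the gene's other start. The starts of the deposited transcripts NM_005348 and NM_001017963 are the same 52705 bases apart, and NM_005348, from the start beside the element, held 98.5% ± 0.246 (SD, n = 3) of the gene's counts in untreated cells. The 2 HSP90AB1 elements stood 165 and 112 bases before the start of NM_001371238, which held 0.0686% of HSP90AB1 counts. They lay 677 and 730 bases after the start of NM_007355, which held 99.2%. The HSPD1 run of 18 bases, made of overlapping elements, began 245 bases before the start of NM_002156, the transcript with 99.3% of HSPD1 counts. The same run lay between 294 and 311 bases before the start of HSPE1, outside its 250-base window. The deposited HSPH1 transcripts start at different positions, NM_006644 (84.3% of untreated counts) at 13:31736041 and NM_001286505 (0.708%) at 13:31736525. Which of these starts the HSPH1 window covers was not established. Matches of letters in a window are a description and not measured binding.

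Of the 10 members, 9 were measured and HSPB8 had 0 counts in each of the 6 libraries. By the quasi-likelihood test of edgeR, adjusted by Benjamini-Hochberg over 14728 genes, 8 members were higher after rhCYGB and 1, HSPE1, was lower at an adjusted p under 0.05. Among all genes tested, 39.0% were called higher and 38.6% lower by the same rule. With total counts the number of members higher was 6, as HSP90AA1 and HSPB1 were no longer called. Of all 14728 genes, 4680 were then higher and 6728 lower, against 5742 and 5685 in the main fit. At a change of 2-fold or more, HSF1 and HSPH1 were higher and 0 members were lower, against 12.4% of all genes higher and 14.7% lower. HSPE1 stood at a fold of 0.523, just short of that limit. The members' median log2 fold change was 0.45, and that of all genes tested was -0.0046. The members together took between 0.789% and 0.808% of all counts in untreated libraries and between 0.863% and 0.915% in rhCYGB libraries, most of it from the HSP90 pair.

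**Figure D1:**
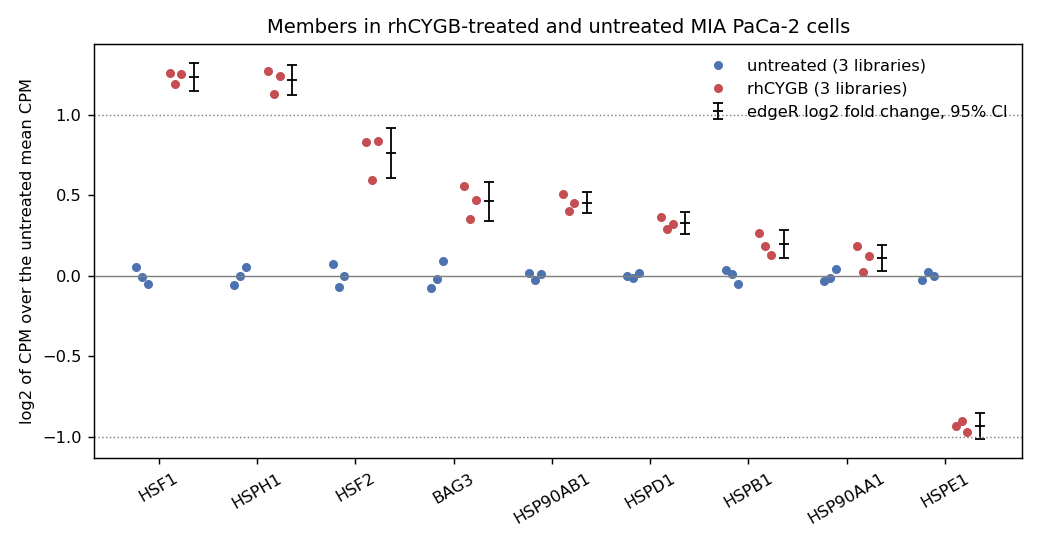
Points show the log2 of each library's CPM over the mean untreated CPM for the 9 measured members, blue for untreated and red for rhCYGB, and black bars give the edgeR log2 fold change with its 95% confidence interval. Dotted lines mark 2-fold changes. HSF1 and HSPH1 lie above the upper line, HSPE1 lies near the lower one, and HSP90AA1, whose direction turns under other scalings, lies near 0 with overlapping groups.

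HSF1 and HSF2, the factors that bind heat shock elements, both rose. HSF1 was measured at 90.4, 86.3 and 84.0 CPM in untreated libraries and 209, 198 and 207 CPM in rhCYGB libraries. The groups were far apart, and the log2 fold change was 1.24 (SE 0.0408, 2.36-fold, 95% interval 2.22 to 2.51, adjusted p = 5.13e-13 from edgeR's quasi-likelihood test). HSF2, a second heat shock factor that can form mixed trimers with HSF1 (6:122720696-122754264), was at 19.5, 17.7 and 18.5 CPM untreated and 33.1, 28.0 and 33.2 CPM after rhCYGB. Its groups did not overlap either, although rhCYGB library 2 was lower than the other rhCYGB libraries, and its log2 fold change was 0.76 (SE 0.0726, edgeR adjusted p = 1.22e-07). HSF1 lies at 8:145515286-145538383 in the deposited positions, used for every gene position given as chromosome and range, whose build is not named, and overlaps the tail of DGAT1, a triglyceride synthesis enzyme, by 137 bases. DGAT1 had a log2 fold change of 0.30 and between 816 and 1017 counts per library, against 3369 to 7757 for HSF1.

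The balance between the transcripts of both factors shifted towards HSF1. The ratio of HSF1 to HSF2 CPM, which does not depend on the scaling of the library, was 4.64, 4.88 and 4.54 in untreated and 6.31, 7.08 and 6.24 in rhCYGB libraries. The log2 ratio was higher by 0.48 after rhCYGB with no overlap, at p = 0.1 in a two-sided exact permutation test, the smallest p that 3 against 3 libraries allow. The same p, adjusted or not, belongs to each of the 3 ratios computed, of 5 planned, since both ratios with HSPB8 had a count of 0 in them. HSF2 had 3 listed transcripts. NM_001135564 held most of its counts (62.7% ± 12 untreated, 64.1% ± 9.25 after rhCYGB, SD, n = 3), and its log2 fold change of 0.72 had an adjusted p of 0.0331 by edgeR that was lost under 8 of 15 alternatives.

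Of 5 other HSFs and HSF-binding proteins, HSF5 had 0 counts and 4 were tested, with 2 higher, 1 lower and HSF4 without a call. The shares over all genes tested were 39.0% higher and 38.6% lower. HSF2BP, a protein of meiotic recombination that binds HSF2, rose from 0.649 ± 0.183 to 1.45 ± 0.369 CPM (SD, n = 3, log2 fold change 1.16, edgeR adjusted p = 0.00294) at a very low level. HSBP1, a small coiled-coil protein that binds HSF1 trimers, and HSBP1L1 are named here after their values were seen. HSBP1 had 102 ± 0.986 CPM untreated and 65.7 ± 0.733 CPM after rhCYGB and fell by 0.64 on the log2 scale, while HSBP1L1 had 0.51 (edgeR adjusted p = 6.64e-10 and 1.17e-04).

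HSPH1, a cytosolic HSP110 protein at 13:31709110-31736525, rose by 2-fold or more, as HSF1 did. Its values were 223, 232 and 241 CPM in untreated and 561, 509 and 549 CPM in rhCYGB libraries, again with widely separated groups. The log2 fold change was 1.22 (SE 0.0436, 2.33-fold, edgeR adjusted p = 1.23e-12). The 3 other HSP110 proteins were also higher, with a median of 1.12, against 39.0% higher among all genes tested. HYOU1, which works in the endoplasmic reticulum, went from 140 ± 4.63 to 306 ± 7.34 CPM (log2 fold change 1.12), and HSPA4L from 15.2 ± 0.917 to 35.3 ± 2.44 CPM (log2 fold change 1.22), both by 2-fold or more. HSPA4, named after its value was seen, had a log2 fold change of 0.52.

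The deposited transcript table divides the HSPH1 rise unequally. The 10 members had 23 listed transcripts, of which 21 could be tested, and 8 of these were higher and 1 was lower by edgeR, against 15.1% and 14.8% of all 32577 transcripts tested. NM_001286503, whose start lies 117 bases before that of the main transcript NM_006644, had 579, 1016 and 706 counts in untreated and 4387, 6766 and 4650 counts in rhCYGB libraries. Its log2 fold change was 2.93 (SE 0.286, edgeR adjusted p = 0.00103), and the call held under all 15 alternatives, with values between 2.49 and 3.11. Its share of HSPH1 counts was 6.96%, 9.79% and 7.19% in untreated and 21.1%, 40.0% and 23.0% in rhCYGB libraries, so the groups were apart but rhCYGB library 2 stood well above the other rhCYGB libraries. NM_006644 fell in share from 84.3% ± 3.34 to 64.2% ± 14.1 (SD, n = 3) and was higher in level, with a log2 fold change of 0.75 and an adjusted p of 0.0398 that was lost under 10 of the 15 alternatives. NM_001286505 had a log2 fold change of 1.85, with an adjusted p of 0.0261 that was lost under 6. These transcripts share most of their sequence, and their counts are estimates by the assembler of which transcript each read came from.

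**Figure D2:**
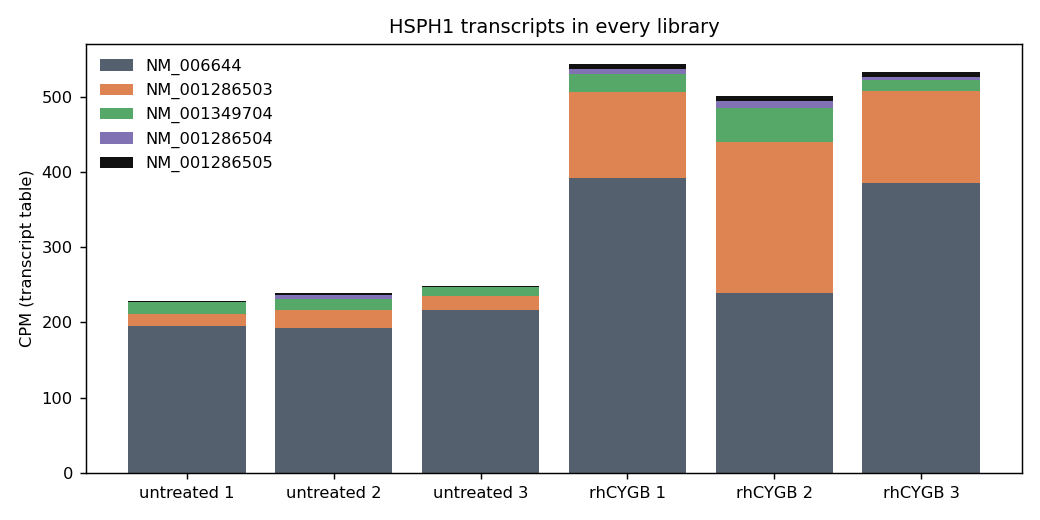
Stacked bars give the CPM of each HSPH1 transcript in the 6 libraries, from the transcript table. The orange part, NM_001286503, is thin in the untreated libraries and holds between 21.1% and 40.0% of the gene's counts in the rhCYGB libraries.

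The cytosolic HSP90 genes moved apart. HSP90AB1, the constitutive form (6:44213903-44221625), was at 2662, 2577 and 2644 CPM in untreated and 3734, 3470 and 3601 CPM in rhCYGB libraries. Every rhCYGB value was above every untreated one. The log2 fold change was 0.45 (SE 0.0311, 1.37-fold, edgeR adjusted p = 2.44e-09), and all 16 alternatives kept the call, with values between 0.29 and 0.48. HSP90AA1, the heat-inducible form (14:102547079-102606086), was at 2770, 2812 and 2924 CPM in untreated and 3226, 2877 and 3086 CPM in rhCYGB libraries. These groups overlapped, and the log2 fold change of 0.11 (SE 0.0381, edgeR adjusted p = 0.0151) became -0.05 with total counts, -0.03 with upper-quartile factors and -0.05 with limma on FPKM, none of them called. Without untreated library 1 it was 0.09 with an adjusted p of 0.0709 by edgeR. At the transcript level NM_005348, with 98.5% of untreated and 99.0% of rhCYGB counts of the gene, had a log2 fold change of 0.04 (edgeR adjusted p = 0.593), whose direction turned as well with total counts and FPKM.

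The difference between both HSP90 genes did not depend on scaling. The ratio of HSP90AA1 to HSP90AB1 CPM was 1.04, 1.09 and 1.11 in untreated and 0.864, 0.829 and 0.857 in rhCYGB libraries. It fell by 0.34 on the log2 scale without overlap (two-sided exact permutation p = 0.1, the smallest possible). The counts of named pseudogenes were at most 0.178% of those of HSP90AA1 and 0.173% of those of HSP90AB1. HSP90AA1 overlaps WDR20 by 327 bases, at the distant start of NM_001017963, and WDR20 had a log2 fold change of -0.24.

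Of 27 HSP90 paralogs and co-chaperones, all tested, 13 were higher, 9 were lower and 5 had no call, with a median log2 fold change of 0.05, against 39.0% higher and 38.6% lower among all genes. FLCN and its partner FNIP1, which slows the HSP90 ATPase, both rose. FLCN went from 45.1 ± 2.70 to 112 ± 5.62 CPM and FNIP1 from 65.1 ± 3.71 to 146 ± 9.84 CPM (SD, n = 3). Their log2 fold changes were 1.31 and 1.17 (edgeR adjusted p = 4.84e-12 and 2.08e-11). CDC37L1, a relative of the kinase co-chaperone CDC37, had 1.10. RUVBL1, an AAA ATPase of the R2TP complex that works with HSP90, went from 177 ± 1.01 to 87.7 ± 2.78 CPM and fell by 1.01 on the log2 scale (edgeR adjusted p = 2.18e-12).

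HSPD1 and HSPE1, the subunits of the mitochondrial chaperonin and its co-chaperonin, went in opposite directions. HSPD1 was at 1074, 1062 and 1085 CPM in untreated and 1385, 1316 and 1342 CPM in rhCYGB libraries. All rhCYGB values lay above all untreated ones, and the log2 fold change was 0.33 (SE 0.0316, 1.25-fold, edgeR adjusted p = 1.45e-07). HSPD1 is drawn in a heatmap of genes that the study chose on these libraries, so its direction is not independent evidence.

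HSPE1 was at 171, 177 and 175 CPM in untreated and 91.2, 93.3 and 88.9 CPM in rhCYGB libraries. The groups were tight and far apart, and HSPE1 fell by 0.94 on the log2 scale (SE 0.0376, 95% interval -1.02 to -0.86, edgeR adjusted p = 4.47e-12). The call held under all 16 alternatives, between -1.10 and -0.92, and passed 2-fold with total counts, upper-quartile factors and both limma fits. Its only transcript, NM_002157, had -1.02 in the transcript fit. Genes with a longest transcript under 800 bases, as HSPE1 with 557 bases, had a median log2 fold change of 0.06 over 801 genes, and 12.5% of them were lower by 2-fold or more.

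These genes lie head to head, HSPD1 at 2:198351308-198364998 and HSPE1 at 2:198365103-198368173 in the deposited positions, with 104 bases between them. The HSPD1 end of this gap is the start of NM_199440, which held 0.661% of untreated HSPD1 counts. The start of NM_002156, with 99.3%, lies 539 bases from that of HSPE1. The ratio of HSPD1 to HSPE1 CPM was 6.27, 6.0 and 6.22 in untreated and 15.2, 14.1 and 15.1 in rhCYGB libraries. It was 2.40-fold higher after rhCYGB without overlap (two-sided exact permutation p = 0.1, the smallest possible), and by FPKM, per length, it went from between 1.49 and 1.56 to between 3.50 and 3.77. HSPE1-MOB4, a read-through transcript that spans the whole of HSPE1, could share its reads. It had 146, 150 and 203 counts in untreated and 107, 61 and 291 counts in rhCYGB libraries, overlapping, with a log2 fold change of 0.05 (edgeR adjusted p = 0.904), and these were between 1.89% and 8.88% of the HSPE1 counts. Summed with it, HSPE1 went from 178 ± 2.72 to 95.3 ± 1.36 CPM (SD, n = 3), a log2 ratio of -0.90. Pseudogenes had at most 1.78% of the counts of HSPD1 and 0.548% of those of HSPE1.

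**Figure D3:**
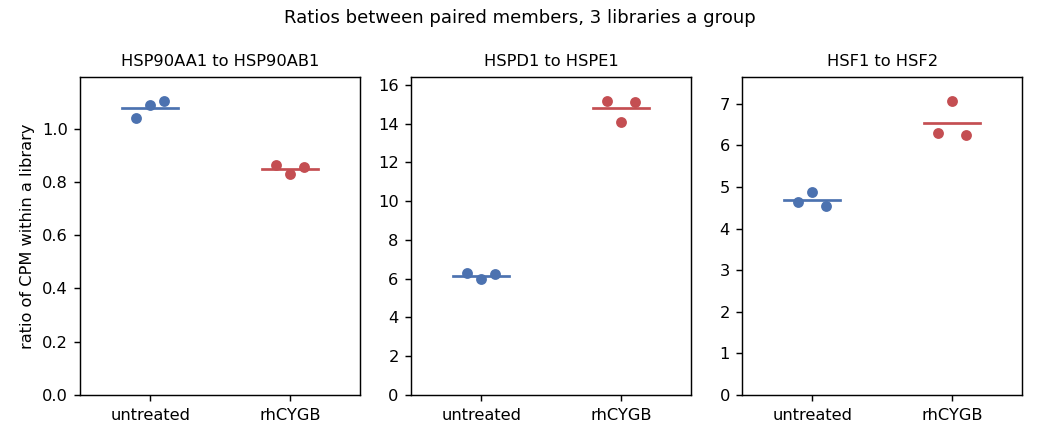
Each point is the ratio of CPM between paired members within 1 library, with lines at the group means. The groups do not overlap in any panel: the HSP90AA1 to HSP90AB1 ratio was lower, and the HSPD1 to HSPE1 and HSF1 to HSF2 ratios were higher, in all 3 rhCYGB libraries.

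Of 14 other mitochondrial chaperones and proteases, 7 were higher, 4 were lower and 3 had no call, with a median log2 fold change of 0.20, beside 39.0% higher and 38.6% lower among all genes. HSPA9, the matrix HSP70 that hands proteins to HSPD1 and HSPE1, rose from 795 ± 5.20 to 2269 ± 28.2 CPM (SD, n = 3, log2 fold change 1.51, edgeR adjusted p = 2.05e-15). GRPEL2, a nucleotide exchange factor of HSPA9, had 1.28, and the matrix protease LONP1 had 1.05. SPG7, a subunit of the inner membrane m-AAA protease, fell from 102 ± 2.04 to 43.9 ± 3.43 CPM, by 1.22 on the log2 scale (edgeR adjusted p = 1.23e-11). HSPE1 was thus lower while the major HSP70 of its compartment was higher.

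BAG3, which brings HSP70 and small heat shock proteins to selective autophagy and lies at 10:121410882-121437331, was at 58.3, 60.4 and 65.3 CPM in untreated and 90.4, 78.4 and 84.9 CPM in rhCYGB libraries. The groups did not overlap, and BAG3 rose by a log2 fold change of 0.46 (SE 0.0567, 1.38-fold, edgeR adjusted p = 2.21e-06). Of 7 other BAG proteins and BAG3 partners, 6 were tested, 5 of them higher and BAG5 without a call, with a median of 0.61. Over all genes tested, 39.0% were higher and 38.6% lower. SQSTM1, the autophagy receptor p62 that acts with BAG3, went from 665 ± 52.7 to 2576 ± 64.5 CPM (SD, n = 3, log2 fold change 1.95, edgeR adjusted p = 2.04e-14). BAG1, which unlike BAG3 directs clients to the proteasome and is named after its value was seen, had 0.87.

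HSPB1, the abundant small heat shock protein HSP27 (7:75931990-75933609), was at 421, 415 and 396 CPM in untreated and 494, 467 and 450 CPM in rhCYGB libraries. The groups did not overlap on this scale, and the log2 fold change was 0.20 (SE 0.0409, 1.15-fold, edgeR adjusted p = 4.64e-04). With total counts, upper-quartile factors and FPKM the value was between 0.03 and 0.05 and not called, and in the transcript fit its only transcript had 0.11 (edgeR adjusted p = 0.103). Its pseudogenes held at most 0.312% of its counts. The call on HSPB1 thus depended on the scaling.

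HSPB8, the small heat shock protein that pairs with BAG3 (12:119616595-119632551), had 0 counts in all 6 libraries, which allows up to 3 counts in each, or between 0.0669 and 0.0902 CPM, for counting error only. It was not detectable at this depth in either group. Of 8 other small heat shock proteins 5 had any counts and 1 could be tested. That gene was HSPB11, also known as the intraflagellar transport protein IFT25 and named after its value was seen, which fell from 20.1 ± 0.928 to 11.0 ± 2.14 CPM (SD, n = 3, log2 fold change -0.88, edgeR adjusted p = 2.26e-06). CRYAB, the lens and muscle small heat shock protein, had a mean of 0 CPM untreated and 0.0362 CPM after rhCYGB. Measured small heat shock protein RNA in these cells was thus nearly all HSPB1.

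Compared per length, as FPKM, the members fell into an upper and a lower set. In untreated cells HSP90AB1 was highest at 959 ± 18.5 FPKM (SD, n = 3), followed by HSP90AA1 at 817 ± 29.4, HSPB1 at 493 ± 11.6, HSPD1 at 446 ± 7.67 and HSPE1 at 292 ± 5.84 FPKM. HSPH1 at 41.4 ± 1.87, HSF1 at 38.0 ± 1.16, BAG3 at 22.2 ± 1.47 and HSF2 at 6.59 ± 0.324 FPKM came next, and no neighbours in this order overlapped. Their ranks among all genes ran from 76 for HSP90AB1 to 6696 for HSF2.

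The order of the means was the same after rhCYGB, but the distances changed. HSP90AB1 was at 1173 ± 62.7 FPKM and HSP90AA1 at 788 ± 58.7 FPKM (SD, n = 3), further apart than before, with HSP90AA1 a little below its untreated mean on this scale. HSPB1 at 503 ± 24.9 and HSPD1 at 499 ± 21.0 FPKM overlapped, HSPB1 being above HSPD1 in 2 of 3 libraries. HSPE1 dropped to 136 ± 0.844 FPKM, and its rank among all genes went from 185 to 388. HSPH1 at 86.0 ± 5.89 and HSF1 at 79.9 ± 3.84 FPKM had overlapping ranges, and their ranks went from 1516 to 669 and from 1661 to 723. BAG3 was at 27.4 ± 2.39 and HSF2 at 10.2 ± 1.26 FPKM.

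**Figure D4:**
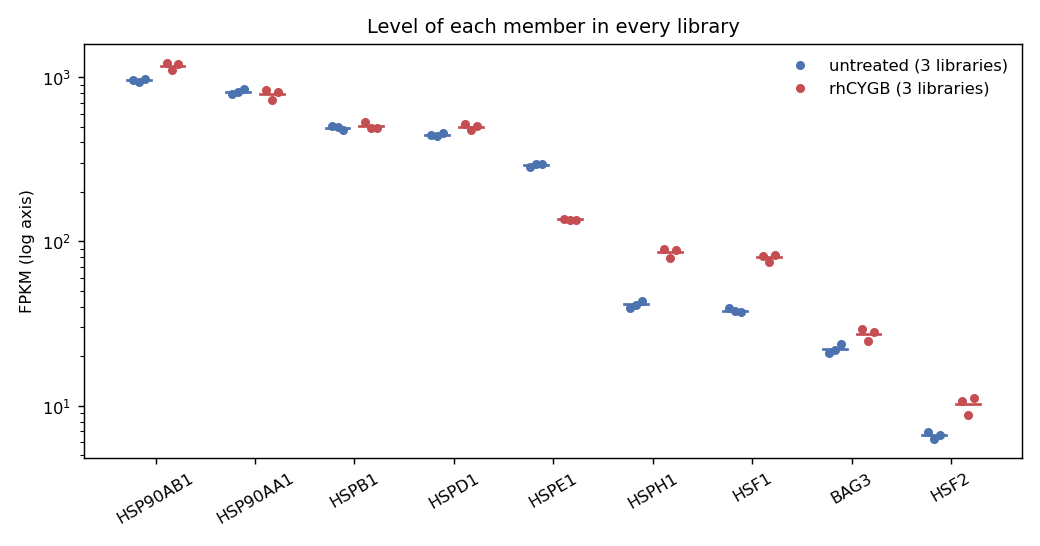
Points give the FPKM of the 9 measured members in each library on a log axis, with a line at each group's mean. HSP90AB1 is highest and HSF2 lowest in both groups, and HSPE1, HSPH1 and HSF1 show the widest gaps between groups.

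Of 18 other heat-inducible HSF1 targets 17 were tested, 12 were higher, 6 of them by 2-fold or more, 3 were lower and 2 had no call, with a median log2 fold change of 0.75. Among all genes tested, 39.0% were higher, 12.4% higher by 2-fold or more and 38.6% lower. HSPA1A and HSPA1B, the inducible HSP70 genes, went from 63.7 ± 2.01 to 570 ± 22.8 CPM and from 61.8 ± 2.36 to 554 ± 33.0 CPM (SD, n = 3), both with a log2 fold change of 3.16 (edgeR adjusted p = 1.02e-16 and 3.17e-16). They are near-identical, so how reads divide between them is uncertain. DNAJB1, the HSP40 partner of HSP70, went from 228 ± 2.93 to 1136 ± 58.8 CPM (log2 fold change 2.32). HSPA1A and DNAJB1, like HSPA8, HSPA9, HSPA4 and BAG1, are drawn in the same heatmap of the study as HSPD1, so their directions are not independent evidence either. The lower genes were DNAJA1, AHSA1 and SERPINH1, with log2 fold changes of -0.14, -0.13 and -0.27, and those without a call were STIP1 and CACYBP, all named after their values were seen.

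Genes of this list were set against the same promoter letters as the members. An element of 3 units was in 5 of the list's 25 windows, those of CHORDC1, DNAJA1, HSPA6, HSPA8 and SERPINH1, which are named for the match. Their log2 fold changes were 0.99, -0.14, 5.81, 0.77 and -0.27. The list's other genes with windows held no such element and are named for its absence. HSPA1A, HSPA1B, DNAJB1, DEDD2 and HSPA4L had 3.16, 3.16, 2.32, 1.51 and 1.22. PTGES3, UBB, STIP1, CACYBP and AHSA1 had 0.22, 0.19, 0.05, 0.04 and -0.13. Among members with the element, HSP90AB1 and HSPD1 had 0.45 and 0.33, and HSP90AA1 had 0.11, which turned negative under other scalings. The HSP90AB1 elements were in the window of NM_001371238, with 0.0686% of untreated counts. The window of its main transcript NM_007355 held none. HSPH1, without an element in its window, had 1.22, and HSPE1, also without one, had -0.94. The HSPH1 window may not cover the start of its main transcript NM_006644. The called changes of genes with the element in a window thus had both signs, as had those of genes without it.

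Of 14 subunits of the cytosolic chaperonin and of prefoldin, which hand on and fold actin and tubulin, 5 were higher, 8 lower and 1 had no call, with a median of -0.11, set against 39.0% higher and 38.6% lower among all genes. PFDN2 was the gene past 2-fold, at 54.2 ± 4.06 CPM untreated and 127 ± 10.8 CPM after rhCYGB (SD, n = 3, log2 fold change 1.22, edgeR adjusted p = 8.71e-11). Over all 88 related genes, 79 were tested, 43 of them higher and 24 lower, with a median of 0.18. With total counts the numbers were 33 higher and 34 lower, and with upper-quartile factors or either limma fit 33 and 32. Of all 14728 genes tested, 5742 were higher and 5685 lower in the main fit. These became 4680 and 6728 with total counts, and 4853 and 6580 with upper-quartile factors. Limma on log2(FPKM + 1) gave 4578 and 6545. The excess of higher over lower calls among related genes thus depended on the scaling, which moved the calls of all genes too.

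**Figure D5:**
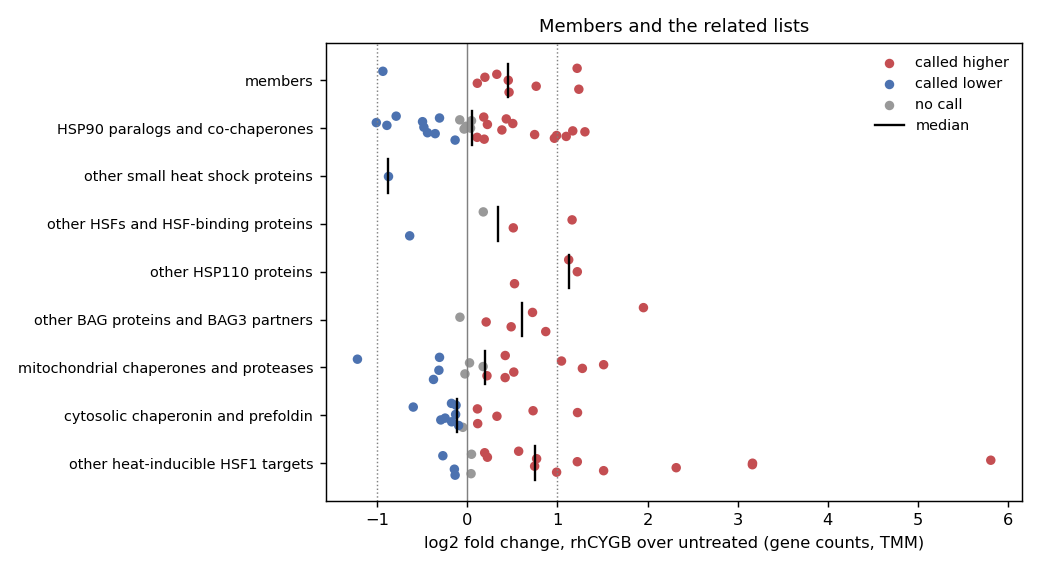
Each point is the edgeR log2 fold change of 1 tested gene, coloured by its call, with a black line at the median of each list and dotted lines at 2-fold. HSP110 proteins and heat-inducible HSF1 targets have the higher medians (1.12 and 0.75), while HSP90 co-chaperones and the chaperonin and prefoldin subunits spread to both sides of 0. HSP90AA1, among the members, turns direction under other scalings.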

How the data were processed

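RNA-seq was analysed from 3 untreated and 3 rhCYGB-treated MIA PaCa-2 libraries (TruSeq stranded mRNA kit), grouped by their labels. The submitters' processing notes name FastQC 0.11.7, HISAT2 2.1.0 and StringTie 2.1.3b. The authors deposited read counts, not normalized, and FPKM values, scaled to transcript length and depth, per gene and per transcript. No file names the build of the deposited positions, and the notes list a mouse build although the identifiers are human. Whether counting used strand is not given in the sources used here. The 6 TPM columns per table were not used. Counts were fitted with edgeR 4.0.16 (R 4.3.3), on all 6 libraries, with the filterByExpr filter, TMM scaling and the quasi-likelihood test, without a block, and Benjamini-Hochberg adjustment over all genes or transcripts tested. A call needed an adjusted p under 0.05, and for 2-fold calls a fold of 2 or more. Of 35993 genes 14728 passed the filter, and 15205 had 0 counts everywhere. The biological coefficient of variation was 5.48%. Ratios of CPM were compared by exact permutation of the libraries. Scripts were tested on simulated data.

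Alternatives were total counts, DESeq2 size factors, upper-quartile factors, the Wald test of DESeq2 1.42.0, limma 3.58.1 with log2(FPKM + 1) or log2(FPKM + 0.1), omitting the filter, at least 10 counts in every library, gene counts summed from transcripts, a block for the replicate number, and fits without each library in turn. Named genes were all members and the 3 genes with the lowest adjusted p in each direction among the 2-fold calls of each related list. Tested genes that overlap a member were named too. Others are marked as named after their values were seen, or for a motif match or its absence. Members, lists and tests were chosen with earlier results of these data known. Floors cover counting error only.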

Additional observations from a re-analysis of the deposited data

How the results depend on the processing

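HSF1, HSF2, HSPH1, HSP90AB1, HSPD1, HSPE1 and BAG3 kept their direction and call under all 16 alternatives. Between 6 and 8 members were higher, and leaving out each library gave 7 to 8. The number was 6 with total counts, upper-quartile factors and both limma fits. In these settings 4680, 4853, 4578 and 4579 of all 14728 genes were higher, against 5742 in the main fit. Members lower by 2-fold or more numbered 1, HSPE1, in place of 0 with total counts, upper-quartile factors, limma on log2(FPKM + 1) and limma on log2(FPKM + 0.1). HSP90AA1 turned to -0.054 with total counts, -0.031 with upper-quartile factors, -0.053 with limma on log2(FPKM + 1) and -0.053 with log2(FPKM + 0.1), and its transcript NM_005348 to -0.048, -0.047 and -0.047 with total counts and both limma fits. HSPB1 was not called under the same 4 settings. The HSP90AB1 transcript NM_001271969, not called, ranged from -0.15 without rhCYGB replicate 3 to 0.88 without untreated replicate 1. With limma on log2(FPKM + 1), 805 genes were higher and 1172 lower by 2-fold or more, against 1833 and 2165. That pseudocount shrinks the change of low genes. The other causes were not tested.

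Whether the replicate numbers pair the libraries is not stated in the sources. The correlations of deviations between same-numbered libraries were -0.0479, 0.00715 and 0.00554, which with 3 libraries a group cannot exclude pairing. With the replicate block, 4 member transcripts were higher in place of 8, and no gene-level call of a member changed. Of all 32577 transcripts tested, 3204 were then higher in place of 4916. Leaving out each library gave 5 to 8 higher member transcripts, with 5 without untreated replicate 1 or 3 or rhCYGB replicate 1 or 3. Over all transcripts, between 3928 and 4192 were then higher, of 34385 to 34759 tested. Member transcripts lower by 2-fold or more numbered 0 to 1, with 0 without rhCYGB replicate 3. Related genes lower by 2-fold or more ranged from 1 to 4 around 2, with 1 without rhCYGB replicate 3 and 4 without rhCYGB replicate 2. All 3 ratios kept their direction under every alternative run. HSPB8 and most other small heat shock proteins had too few counts to be tested.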
